A study of Mus musculus with 221 samples.

Results

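Complex I, the NADH dehydrogenase at the entry of the respiratory chain, is built from subunits of both genomes, and the mitochondrial genome of the mouse encodes 7 of them as the mt-Nd genes. These genes were taken by name from the count table: 7 of 55291 genes, and 7 of the 13 mRNA genes among the 37 mitochondrial genes listed. Their mRNAs are cut from long transcripts that run around the circular genome. Complex I carries electrons from NADH to ubiquinone and pumps protons across the inner membrane, and in cleavage-stage embryos the mitochondria come from the oocyte. Of the 7 genes, 6 lie on the plus strand of the table, which is read from the heavy strand, while mt-Nd6 lies on the minus strand and is the only mRNA gene read from the light strand.

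Single early 2-cell embryos were profiled by Smart-seq2, a method that reverse transcribes RNA with a poly(A) tail and then amplifies the cDNA. All embryos were made by in vitro fertilization of oocytes whose nuclear DNA was C57BL/6N and whose mtDNA was that of the Staudach (ST) line, and the sperm, which had been frozen and thawed, was of males of the C57BL/6N strain on a high-fat diet (HFD, 38 embryos numbered 31 to 70 and 84 others) or a low-fat diet (LFD, 99 embryos). The embryos themselves were not exposed to either diet. The labels gave the diet of the father and an embryo number, and named no father, date or sex. A few males stood behind each diet, and embryos with the same father were treated as separate replicates. The effect of diet and that of the individual males cannot be told apart.

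Total counts ran from 1937251 to 17246791 per embryo (median 5706066), with 11364 to 21638 genes detected. All 11 markers of the 2-cell stage and 13 of 14 oocyte markers had a median above 1 CPM (counts in each 1000000 counts of a library), while 8 of 12 cumulus and granulosa markers and 5 of 7 sperm markers had a median of 0. The 15 macrophage markers were summed in each embryo: the medians were 76.5 CPM in HFD and 77.3 CPM in LFD embryos, but the highest value was 6221 CPM in HFD and 156 CPM in LFD, and 7 of the markers, among them C1qa and Adgre1, had a median of 0. Summed, the 7 mt-Nd genes made up 1.43% ± 0.49 (mean ± SD) of a library from HFD embryos and 1.16% ± 0.47 of one from LFD embryos. Within the counts of the 13 mitochondrial mRNAs their share was 29% ± 4.0 and 29.5% ± 3.7. All 7 passed the filter on low counts, and mt-Nd6, which had the fewest counts, had a median of 719 counts per embryo. CPM are shares of a library, so that more mitochondrial mRNA and less nuclear mRNA in an embryo cannot be told apart.

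The 7 genes are spread over the genome and differ in their start codons. The first 24 bases of each gene, 5′ to 3′ on its own strand with the start codon in capitals, were read from the GENCODE transcripts of build GRCm38, whose mitochondrial sequence is that of C57BL/6J. The Staudach sequence to which the reads were aligned was not used here.
mt-Nd1: GTGttctttattaatatcctaaca
mt-Nd2: ATAaatcctatcacccttgccatc
mt-Nd3: ATTaacctgtacactgttatcttc
mt-Nd4l: ATGccatctaccttcttcaacctc
mt-Nd4: ATGctaaaaattattcttccctca
mt-Nd5: ATCaatattttcacaacctcaatc
mt-Nd6: ATGaataattatatttttgtttta
Only mt-Nd4l, mt-Nd4 and mt-Nd6 open with ATG. The genes lie on chromosome MT (GRCm38, as the table gives it) at 2751 to 3707 for mt-Nd1, 3914 to 4951 for mt-Nd2, 9459 to 9806 for mt-Nd3, 9877 to 10173 for mt-Nd4l, 10167 to 11544 for mt-Nd4, 11742 to 13565 for mt-Nd5 and, on the minus strand, 13552 to 14070 for mt-Nd6. Each is a single exon without an intron, and the table listed the same coordinates and strands as GENCODE for all 7. The strand is visible in the base composition of the mRNA: the 6 heavy-strand genes held 8.0% to 11.6% G, and mt-Nd6 held 28.1% G with 5.97% C.

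Each of the pairs that follow shares bases, and the shared bases are printed in capitals because a read there cannot be given to 1 gene without further information. mt-Nd4l and mt-Nd4 overlap by 7 bases on the same strand, and mt-Nd5 and mt-Nd6 overlap by 14 bases on opposite strands.
end of mt-Nd4l: aatctcaacctactacaATGCTAA
start of mt-Nd4: ATGCTAAaaattattcttccctca
end of mt-Nd5: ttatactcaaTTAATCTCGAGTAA
end of mt-Nd6: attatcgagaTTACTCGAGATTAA
In the first pair the start codon of mt-Nd4 stands inside the last codons of mt-Nd4l, and in the second each end is the reverse complement of the other. mt-Nd4l and mt-Nd3, with 297 and 348 bases, are the shortest members, and mt-Nd5, with 1824 bases, is the longest, so that a 150-base read has the fewest places in the first and the most in the last. Smart-seq2 does not mark the strand of the RNA, and the counting used the setting for reverse-stranded reads. A read over mt-Nd6 could therefore come from its own mRNA or from heavy-strand RNA over the same bases, and these cannot be told apart in the table; the same holds, with strands exchanged, for the other 6.

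The first question was how the levels of the 7 mRNAs compare with each other. Levels between genes are given per length, as log2(CPM per kilobase + 0.5), and averaged over all embryos. The method starts from poly(A) tails, and the tails of the 7 mRNAs were not measured. A level is therefore that of captured RNA, and a difference between genes can hold a difference in capture. mt-Nd1, whose product forms part of the ubiquinone site, had the highest level at 12.42 ± 0.57 (SD). mt-Nd4, mt-Nd5 and mt-Nd2, which encode the antiporter-like subunits of the proton-pumping membrane arm, had levels of 10.84 ± 0.51, 10.25 ± 0.59 and 10.06 ± 0.64. The small membrane subunits encoded by mt-Nd4l, mt-Nd3 and mt-Nd6 had levels of 10.68 ± 0.61, 10.21 ± 0.69 and 7.91 ± 0.75. The range from the highest to the lowest mean was thus 4.51 on the log2 scale, or 22.7-fold per length, and the mean levels stood in the same order in both diets.

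The ends of this order held in nearly every embryo, and its middle did not. mt-Nd1 had the highest level per kilobase of the 7 in every embryo, 2.98-fold above mt-Nd4, the next. mt-Nd6 had the lowest level in all but 2 embryos, on average 4.41-fold below mt-Nd2. These embryos were HFD embryo 64, in which mt-Nd3 was lowest, and LFD embryo 26, in which mt-Nd4l was lowest. They had few detected genes, 12918 and 14707, at ranks 4 and 7 from the lowest of all embryos.

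Among the 5 mRNAs between them, neighbours in the order lay closer than the spread of their difference in 3 of the 4 steps. mt-Nd4 lay above mt-Nd4l by 0.16 ± 0.34 (log2 level per kilobase, mean ± SD over embryos) and was the higher in 71% of embryos. mt-Nd5 lay above mt-Nd3 by 0.04 ± 0.41, in 52.5% of embryos, and mt-Nd3 above mt-Nd2 by 0.16 ± 0.57, in 69.7% of embryos. The step from mt-Nd4l to mt-Nd5 was larger, 0.43 ± 0.36, with mt-Nd4l the higher in 89.6% of embryos. When the number of places for a 150-base read served as the length, mt-Nd4l (11.76) and mt-Nd3 (11.02) moved up to or above mt-Nd4 (11.02), so the place of the 2 shortest genes in the order depends on how length is counted, while mt-Nd1 stayed highest and mt-Nd6 lowest.

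**Figure D1:**
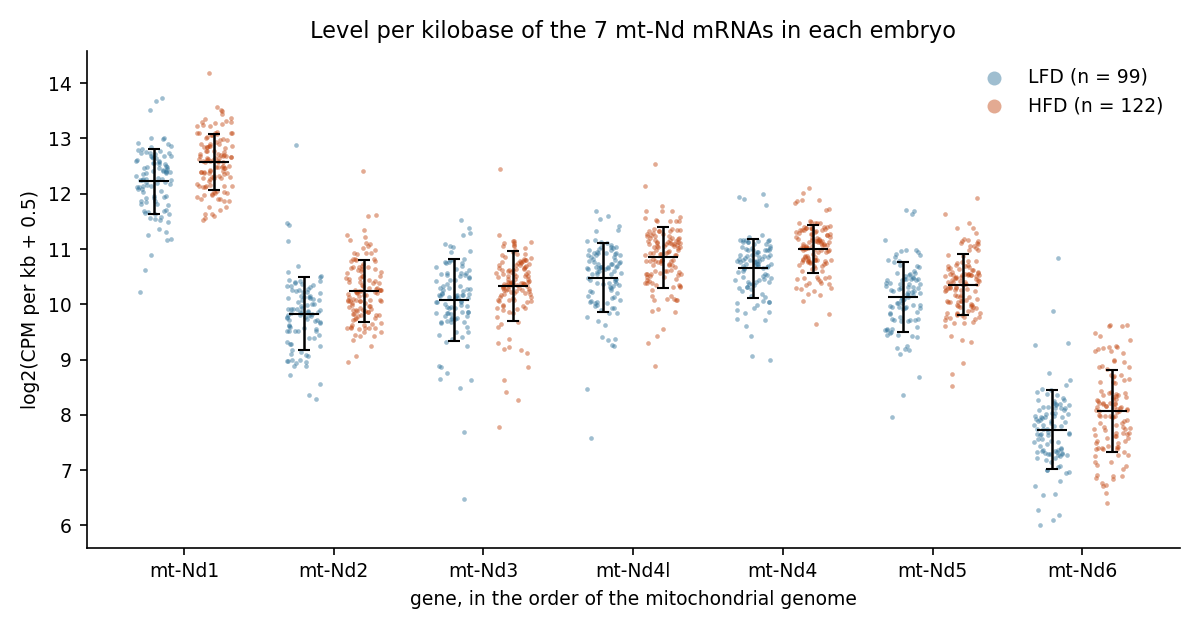
Each point is 1 embryo (99 LFD and all HFD embryos), the vertical axis is log2(CPM per kilobase + 0.5), and black marks give the mean with bars of 1 SD. mt-Nd1 lies highest and mt-Nd6 lowest, and the diets overlap over most of their range for every gene.

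Position along the heavy strand did not order the levels once mt-Nd1 was included. Over the 6 heavy-strand mt-Nd mRNAs, Spearman's rho between the start position and the mean level per kilobase was -0.03, and over all 12 heavy-strand mRNAs it was -0.10, while over the 5 members without mt-Nd1 it was 0.70. These are descriptions across genes, which are not independent replicates. mt-Nd1 and mt-Nd2 start 1163 bases apart, with 3 tRNA genes between them, and mt-Nd1 exceeded mt-Nd2 by 2.34 (log2 per length) in HFD and 2.40 in LFD embryos. The 5 other heavy-strand mt-Nd mRNAs ran from 10.06 for mt-Nd2 to 10.84 for mt-Nd4, and mt-Nd3, mt-Nd4l and mt-Nd4, which follow each other, came 6708, 7126 and 7416 bases after the start of mt-Nd1. Among the 13 mitochondrial mRNAs, mt-Nd1 ranked 3, behind mt-Atp6 and mt-Cytb, and the other 6 mt-Nd mRNAs took the ranks from 8 to 13.

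The tRNA genes that flank the members had few counts. mt-Tl1, which ends where mt-Nd1 begins, had a median of 0.685 CPM in HFD and 0.533 CPM in LFD embryos, while mt-Rnr2, the large ribosomal RNA on its other side, had 6042 and 4258 CPM. The medians were 0 CPM for mt-Th, mt-Ts2 and mt-Tl2, the tRNA genes between mt-Nd4 and mt-Nd5. mt-Te, the light-strand tRNA gene that adjoins mt-Nd6, had 2.94 CPM in HFD and 2.62 CPM in LFD embryos, against 139.5 and 111.3 CPM for mt-Nd6. The tRNA genes are shorter than a read, so their values are not levels that can be set beside the mRNAs.

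**Figure D2:**
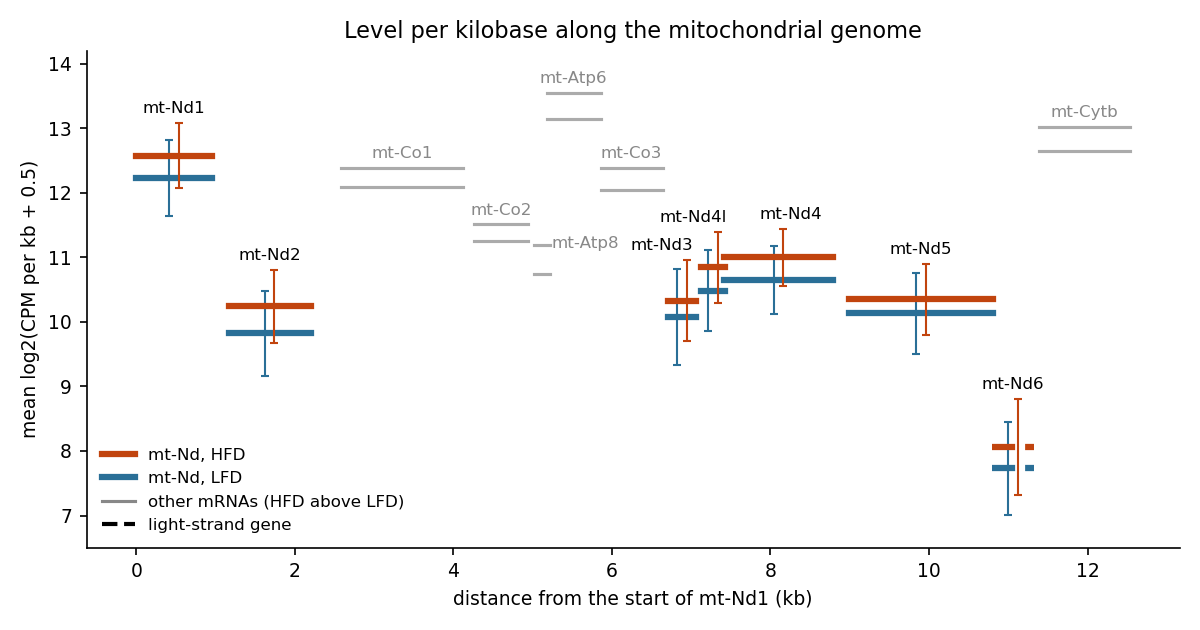
The horizontal axis is the distance in kilobases from the start of mt-Nd1 and the vertical axis the mean log2(CPM per kilobase + 0.5); each bar spans a gene, in HFD (red) and LFD (blue) for the mt-Nd mRNAs, with SD, and in grey for the other 6 mRNAs, with HFD the upper bar, and the dashed bars mark the light-strand gene mt-Nd6. mt-Nd1 stands among the highest mRNAs, and mt-Nd6 is the lowest of the 13.

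The second question was whether the diet of the father went with a difference in these mRNAs. In HFD embryos 4 of the 7 were higher than in LFD embryos by edgeR's quasi-likelihood test with Benjamini-Hochberg adjustment over all 14820 genes tested (false discovery rate, FDR, under 0.05): mt-Nd1, mt-Nd2, mt-Nd4l and mt-Nd4. Over all genes 2.12% passed the same threshold in either direction and 1.07% were higher in HFD. Of all genes, 1.05% were lower in HFD. The remaining mt-Nd3, mt-Nd5 and mt-Nd6 had fold changes above 0 that did not pass. The median log2 fold change of the 7 was 0.36, against 0.00 over all genes tested.

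mt-Nd1 ran from 2804 to 17729.8 CPM in HFD embryos (median 5938) and from 1138 to 13003 CPM in LFD embryos (median 4724). Most HFD embryos lay high within a shared range: 73.8% were above the LFD median, 1 was above the highest LFD embryo, and 10 LFD embryos were below the lowest HFD embryo. Its log2 fold change was 0.36 (SE 0.08, edgeR FDR 0.00125).

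Of the pump subunits, mt-Nd4 ran from 1108 to 6029 CPM in HFD (median 2906) and from 698 to 5637 CPM in LFD embryos (median 2337). It had the most HFD embryos above the LFD median of the 7, with 94 embryos, and it was higher in HFD by 0.36 on the log2 scale (SE 0.07, edgeR FDR 0.000194). mt-Nd2 ran from 514 to 5678 CPM in HFD (median 1226) and from 324 to 7806 CPM in LFD embryos (median 957). Here 75.4% of HFD embryos were above the LFD median, but the highest value of all belonged to LFD embryo 26. The log2 fold change of mt-Nd2 was 0.38 (SE 0.09, edgeR FDR 0.0067), and it was 0.29 (FDR 0.174) without the HFD embryos numbered 31 to 70. These embryos were singled out with earlier results of these data known and are left out of the HFD group alone. Values without them are thus a description and no test of the diet. The LFD embryos of these numbers, which stay in, had a lower mean than other LFD embryos for each of the 7 mRNAs. Outside these numbers in both diets, the mean log2 CPM of mt-Nd2 was 10.17 in HFD and 9.98 in LFD embryos. mt-Nd5, at the far end of the membrane arm, ran from 669 to 7069 CPM in HFD (median 2435) and from 452 to 6053 CPM in LFD embryos (median 2121). With 63.1% of HFD embryos above the LFD median, it had the smallest such share, and its log2 fold change of 0.22 (SE 0.08) did not pass (edgeR FDR 0.152), except without the filter on low counts (FDR 0.0452).

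Of the small membrane subunits, mt-Nd4l ran from 139.8 to 1777 CPM in HFD (median 575) and from 56.9 to 985 CPM in LFD embryos (median 462). In 68.9% of HFD embryos it was above the LFD median, 3 HFD embryos were above every LFD embryo, and the log2 fold change was 0.39 (SE 0.08, edgeR FDR 0.000514). mt-Nd3 ran from 76.6 to 1946 CPM in HFD (median 467) and from 30.7 to 1029 CPM in LFD embryos (median 394). Although 89 HFD embryos were above the LFD median, its log2 fold change of 0.26 (SE 0.09) did not pass (edgeR FDR 0.105). It passed without the 8 embryos with under 15000 detected genes, at 0.27 (FDR 0.0402), and without the filter on low counts (FDR 0.0265).

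mt-Nd6, the light-strand mRNA, ran from 43.7 to 411 CPM in HFD (median 139.5) and from 33.04 to 953 CPM in LFD embryos (median 111.3). The diets overlapped here in both directions: 64.8% of HFD embryos were above the LFD median, no HFD embryo was above the highest LFD embryo, and 2 LFD embryos were above the highest HFD embryo. The log2 fold change was 0.33 (SE 0.11, edgeR FDR 0.0727), with the largest SE of the 7. Its call depended on the fit: it passed in 5 of 13 other fits and did not pass in 8. DESeq2 did not call it (0.32, FDR 0.0556). In limma-voom it passed at 0.36 (FDR 0.0225), but not with number ranges within a diet as a random effect (0.36, FDR 0.112). It also passed without the embryos of few genes, at 0.44 (FDR 0.00122), and with ranges of 10 numbers as a fixed effect, at 0.38 (FDR 0.0161). Without the HFD embryos numbered 31 to 70 it was 0.08 (SE 0.11, FDR 0.893).

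**Figure D3:**
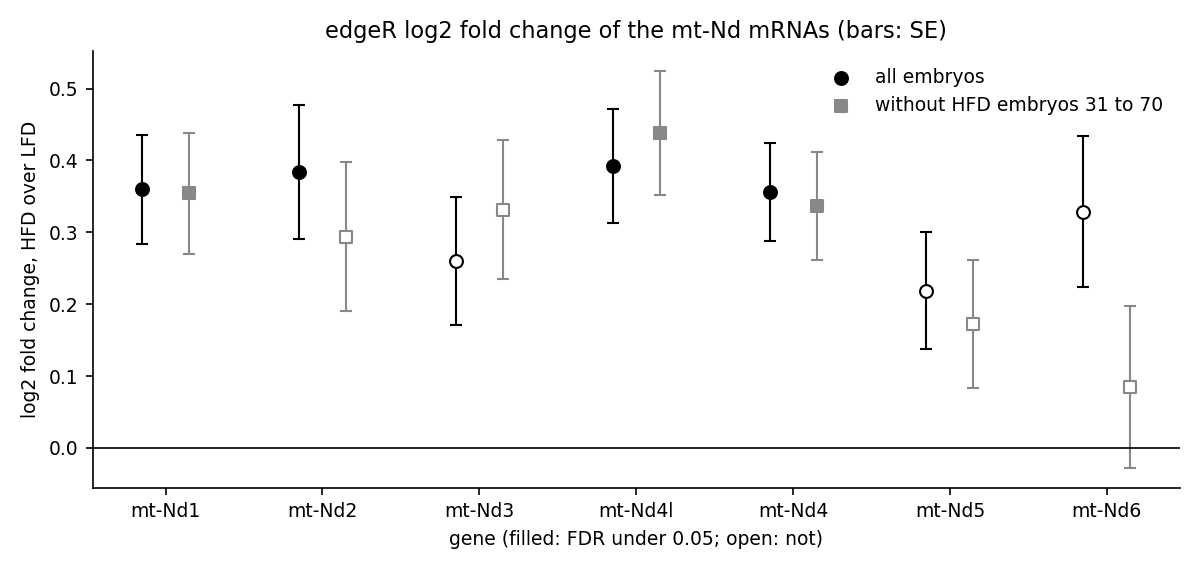
Points give the edgeR log2 fold change, HFD over LFD, of each mt-Nd mRNA with bars of 1 SE, over all embryos (black circles) and without HFD embryos 31 to 70 (grey squares); filled points have an FDR under 0.05. mt-Nd1, mt-Nd4l and mt-Nd4 pass in both, mt-Nd2 in the first alone, and mt-Nd6 falls from 0.33 to 0.08. HFD embryos 31 to 70 were chosen with earlier results known, so the grey squares are a description and no test of the diet. The grey squares keep the LFD embryos of these numbers, whose means were below those of other LFD embryos for all 7 mRNAs.

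The share of members called was above that of all genes in each of the fits that follow. These fits use largely the same embryos, and the members went up and down together, so the calls are not independent of each other. In the edgeR fit over all embryos the median log2 CPM was 10.3 for the members and 4.01 over all genes tested. The share over all genes was not matched for abundance. limma-voom called 5 of the 7 and 2.19% of all genes, and DESeq2 called 4 and 3.38%. Without the filter on low counts, edgeR called 7 and 15.4%. With library sizes from nuclear genes or from all genes it called 4, with 2.09% and 2.15% of all genes. Without the embryos of few genes it called 6, and with number ranges as a fixed effect 5, and in both fits 3.76% of all genes were called. Without the HFD embryos numbered 31 to 70 it called 3, with 1.18% of all genes, and limma-voom with number ranges within a diet as a random effect called 4, with 0.54%. mt-Nd1, mt-Nd4l and mt-Nd4 passed in each of these fits, of which that without the HFD embryos numbered 31 to 70 is no test of the diet.

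In standard deviations over embryos the mean differences of log2 CPM ran from 0.37 for mt-Nd5 to 0.73 for mt-Nd4. Markers of another cell type moved with the group in part. Of the HFD embryos, 12 had a summed macrophage level above that of every LFD embryo. The other 110 had higher mean log2 CPM than LFD embryos for all 7 mRNAs, by 0.20 for mt-Nd5 to 0.38 for mt-Nd2. With the macrophage level as a covariate edgeR called 4 of the 7 and 1.81% of all genes, and with the level of Y-linked genes as a covariate 4 and 1.82%. The part of either level in the differences between the diets was not tested.

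The labels number the embryos and do not say what the numbers mean. Of the ranges of 10 consecutive numbers, 11 held both diets, and the difference of mean log2 CPM, HFD minus LFD, was taken in each. It was above 0 in 11 ranges for mt-Nd4l and mt-Nd4, in 10 for mt-Nd1 and mt-Nd2, in 8 for mt-Nd3 and mt-Nd6, and in 6 for mt-Nd5. All 7 mRNAs were higher in HFD in 5 of the 11 ranges.

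The ranges from 31 to 70 stood apart for 5 of the 7 members, above all for mt-Nd6. In the 4 ranges of this run its difference was 0.79 to 1.29, and in the 7 other ranges it ran from -0.41 to 0.36 and was above 0 in 4. Its mean was 7.66 ± 0.65 log2 CPM in the 38 HFD embryos of this run, 6.88 ± 0.64 in the 84 other HFD embryos and 6.79 ± 0.71 in LFD embryos. The LFD embryos of the same numbers did not stand high: their mean was 6.58 (n = 39), and that of the 60 other LFD embryos was 6.92. The differences in the run also lay above all of those outside it for 4 other members. They were 0.41 to 0.78 in the run and -0.04 to 0.39 outside it for mt-Nd1, 0.66 to 0.95 and -0.05 to 0.49 for mt-Nd2, and 0.51 to 0.76 and 0.03 to 0.47 for mt-Nd4. For mt-Nd5 they were 0.37 to 0.83 in the run and -0.19 to 0.32 outside it, where 2 of 7 ranges were above 0. They overlapped for mt-Nd3, with -0.03 to 0.69 against -0.35 to 0.57, and for mt-Nd4l, with 0.20 to 0.63 against 0.10 to 0.66. For the 4 members before these, HFD embryos of the run were higher and LFD embryos of the same numbers lower than the others of their diet. Mean log2 CPM in the run and outside it was 12.60 and 12.47 in HFD and 11.98 and 12.28 in LFD embryos for mt-Nd1. For mt-Nd2 it was 10.56 and 10.17, and 9.73 and 9.98. For mt-Nd4 it was 11.56 and 11.42, and 10.96 and 11.21. For mt-Nd5 it was 11.38 and 11.15, and 10.79 and 11.13. The run was singled out with earlier results of these data known, so these values carry no test.

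**Figure D4:**
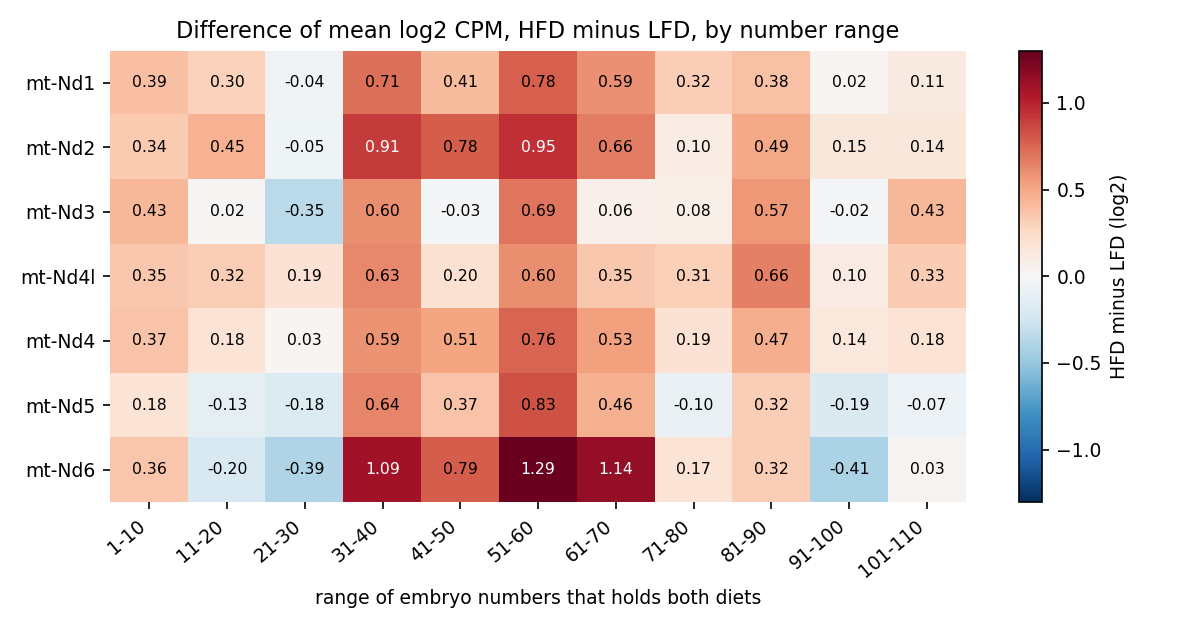
Each cell gives the difference of mean log2 CPM, HFD minus LFD, of a gene (rows) in a range of 10 embryo numbers that holds both diets (columns), red where HFD is higher and blue where LFD is higher. The 4 ranges from 31 to 70 hold the highest differences of mt-Nd6 (0.79 to 1.29), and mt-Nd4l and mt-Nd4 are above 0 in all 11.

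The third question was whether the mRNAs kept their ratios to each other between the diets. For each of the 21 pairs the log2 ratio of the counts (0.5 added to each) was taken within each embryo, where library size cancels, and the diets were compared by a 2-sided permutation test with 100000 permutations and adjustment over the 21 pairs. Of the pairs, 5 differed past the threshold, and mt-Nd5 was in 4 of them. Among all mt-Nd counts, mt-Nd5 took 17.8% ± 2.8 in HFD and 19.2% ± 2.8 in LFD embryos.

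mt-Nd5 was lower in HFD embryos relative to mt-Nd1, mt-Nd2, mt-Nd4 and mt-Nd4l. The log2 count ratio of mt-Nd4 to mt-Nd5 ran from -0.52 to 0.97 in HFD (median 0.25) and from -0.56 to 0.87 in LFD embryos (median 0.11), with a difference of means of 0.13 (95% interval 0.06 to 0.21, adjusted permutation p = 0.00504). The ratio of mt-Nd2 to mt-Nd5 ran from -1.85 to 0.52 in HFD (median -0.97) and from -1.80 to 1.34 in LFD embryos (median -1.13), with a difference of 0.20 (0.09 to 0.30, adjusted permutation p = 0.00504). Again the diets overlapped, with 85 and 82 HFD embryos above the LFD median of these ratios.

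The ratio of mt-Nd1 to mt-Nd5 differed by 0.13 (0.05 to 0.21, adjusted permutation p = 0.00982) and that of mt-Nd4l to mt-Nd5 by 0.15 (0.06 to 0.24, adjusted permutation p = 0.00966). These 4 ratios were higher in HFD embryos in 9 of 11 number ranges for mt-Nd4, 11 for mt-Nd2, 10 for mt-Nd1 and 7 for mt-Nd4l. With medians in place of means the difference of mt-Nd4l to mt-Nd5 was 0.09 and did not pass (adjusted permutation p = 0.0747), and without the HFD embryos numbered 31 to 70 it was 0.23.

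The remaining called pair was mt-Nd3 to mt-Nd4l, neighbours on the genome with the tRNA gene mt-Tr between them. Their log2 count ratio ran from -1.23 to 0.39 in HFD (median -0.26) and from -0.89 to 1.35 in LFD embryos (median -0.17). It was lower in HFD by 0.11 on the log2 scale (-0.19 to -0.03, adjusted permutation p = 0.0286), and by 0.07 without the HFD embryos numbered 31 to 70. With medians it was -0.08 and did not pass (adjusted permutation p = 0.0747).

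For mt-Nd6 none of the 6 ratios to the heavy-strand mRNAs passed in the permutation test over all embryos, with 1 at an unadjusted p under 0.05. The differences ran from -0.12 for mt-Nd5 to mt-Nd6 (95% interval -0.23 to -0.00, adjusted permutation p = 0.14) to 0.08 for mt-Nd2 to mt-Nd6 (-0.02 to 0.18, adjusted permutation p = 0.249). That of mt-Nd4 to mt-Nd6 was 0.02 (-0.10 to 0.13, adjusted permutation p = 0.84) and that of mt-Nd1 to mt-Nd6 0.01 (-0.10 to 0.13, adjusted permutation p = 0.848). These intervals still allow a change of about as much as was called for mt-Nd5. In some alternatives mt-Nd5 to mt-Nd6 did pass. The difference was -0.19 with permutation within number ranges (adjusted permutation p = 0.00189). Without embryos of few genes it was -0.14 (adjusted permutation p = 0.0235). With the embryo number as a replicate block it was -0.19 and also passed. No other ratio to mt-Nd6 passed in these alternatives.

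Several ratios changed with the number run. Leaving out the HFD embryos numbered 31 to 70, whose mean mt-Nd6 level was high, gave differences of 0.20 to 0.29 for mt-Nd1, mt-Nd2, mt-Nd3, mt-Nd4l and mt-Nd4 to mt-Nd6. As these embryos were chosen with their values known, the differences are given with no test. For mt-Nd3 to mt-Nd6 the sign turned, from -0.08 over all embryos to 0.22, and for mt-Nd5 to mt-Nd6 from -0.12 to 0.06. Ratios without mt-Nd6 moved as well: that of mt-Nd3 to mt-Nd5 went from 0.04 to 0.16 and that of mt-Nd2 to mt-Nd3 from 0.15 to -0.01. Over the 11 number ranges the difference of mt-Nd4 to mt-Nd6 ran from -0.61 to 0.55, and for mt-Nd3 to mt-Nd6 from -1.08 to 0.40.

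**Figure D5:**
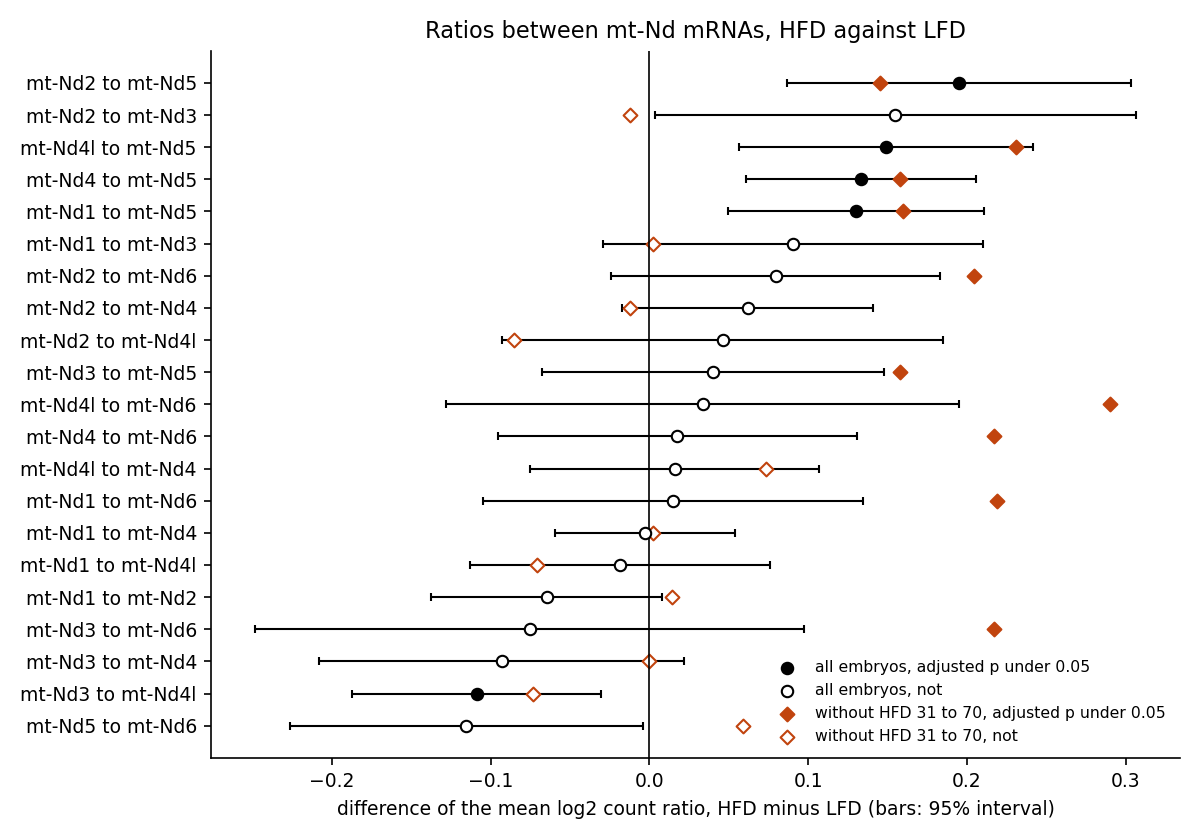
Circles give the difference between the diets of the mean log2 count ratio of each of the 21 pairs, with 95% intervals. Diamonds, drawn with no interval, give the difference without HFD embryos 31 to 70, which were chosen with their values known. Filled symbols have an adjusted permutation p under 0.05, which for the diamonds is no test of the diet. Over all embryos the called pairs are 4 with mt-Nd5 and that of mt-Nd3 with mt-Nd4l, and the diamonds of 5 pairs with mt-Nd6 lie at 0.20 to 0.29.

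Within each diet the 7 mRNAs went up and down together from embryo to embryo. Over the 21 pairs Pearson's r of log2 CPM was 0.46 to 0.89 in HFD and 0.61 to 0.94 in LFD embryos, and Spearman's rho was 0.52 to 0.90 and 0.68 to 0.93. Of the 42 correlations all had an adjusted permutation p of 1e-05, the smallest that the permutations can give, for r and for rho. Without the 2 embryos farthest from the median, r was 0.46 to 0.89 in HFD and 0.58 to 0.93 in LFD. Both mRNAs of a pair share the library and its total.

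The lowest r in HFD embryos was that of mt-Nd3 with mt-Nd6 (0.46), and the highest was that of mt-Nd1 with mt-Nd4 (0.89). With the diet means removed, over all embryos, the mitochondrial genes most like each member were mostly other members, and these likenesses are descriptions. mt-Nd1 was most like mt-Nd4 (r = 0.92) and mt-Nd2 (0.89), and mt-Nd5 most like mt-Nd4 (0.89) and mt-Nd1 (0.86). mt-Nd3 was most like its neighbour mt-Nd4l (0.90), then mt-Co2 (0.82). mt-Nd4l after mt-Nd3 was most like mt-Nd5 (0.82). The light-strand mt-Nd6 was most like mt-Nd2 (0.84) and mt-Nd4 (0.83), not mt-Nd5 (0.82), with which it overlaps, though these values lie close.

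Nuclear genes were less like the members. Eloc (chromosome 1), which encodes elongin C, had the highest r of all nuclear genes with 4 members: mt-Nd3 (0.73), mt-Nd4l (0.67), mt-Nd1 (0.53) and mt-Nd5 (0.47). The next for these were Oosp1, an oocyte-secreted protein gene, for mt-Nd3 (0.66), AA623943 for mt-Nd4l (0.58), Gpx1, a glutathione peroxidase, for mt-Nd1 (0.52) and Snrpg, a splicing protein, for mt-Nd5 (0.43). mt-Nd2 was most like Rps27l (0.62) and Omt2b (0.56), mt-Nd4 like Wapl (0.50) and Spry2 (0.49), and mt-Nd6 like Rock1 (0.52) and Mybl1 (0.50). The median r over all nuclear genes lay between -0.06 and 0.06 for each member.

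The number of detected genes in an embryo moved with some members. In LFD embryos it went with mt-Nd4l (r = 0.62, rho = 0.54, adjusted permutation p = 7e-05 and 0.00014, r = 0.51 without the 2 embryos farthest from the median) and with mt-Nd3 (r = 0.47, rho = 0.37, adjusted permutation p = 7e-05 and 0.000805, r = 0.33 without them). In HFD embryos it went the other way for mt-Nd2 (r = -0.36, rho = -0.28, adjusted permutation p = 0.00028 and 0.00493, r = -0.31 without them) and mt-Nd6 (r = -0.34, rho = -0.33, adjusted permutation p = 0.000385 and 0.000805, r = -0.36 without them). Of 14 such relations, 8 had an adjusted permutation p under 0.05 for r and 8 for rho. Their part in the differences between the diets was not tested. Most HFD embryos numbered 31 to 70 had fewer detected genes than the HFD median of 18925. The mean log2 CPM of mt-Nd2 was 10.56 in these embryos and 10.17 in other HFD embryos, and that of mt-Nd6 7.66 and 6.88. Whether the relations in HFD embryos hold apart from these numbers was not tested.

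Single embryos set several of the extremes. LFD embryo 33, with the fewest detected genes of all (11364), had the lowest level of 5 members, among them mt-Nd3 at 30.7 CPM and mt-Nd4l at 56.9 CPM. HFD embryo 28 had the highest level of mt-Nd1, mt-Nd3 and mt-Nd4l. LFD embryo 26, with 14707 detected genes, had 953 CPM of mt-Nd6, against 485 CPM in the next embryo, and 7806 CPM of mt-Nd2. Leaving out each embryo in turn moved the log2 ratio of mean CPM, HFD over LFD, of mt-Nd6 from 0.31 to between 0.29 and 0.41 and that of mt-Nd2 from 0.35 to between 0.31 and 0.45, both highest without LFD embryo 26. For the other 5 members it moved by less.

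Nuclear gene models that resemble members were looked at because reads could be split between the copies. Of these, 8 shared 31-base stretches with a member: Gm28438 with mt-Nd3 (99.7% identity over 345 bases), Gm10222 with mt-Nd4l (100% over 294 bases) and Gm28439 with mt-Nd4 (100% over 876 bases), all on chromosome 1 between 24611535 and 24613119, and more distant copies of mt-Nd2, mt-Nd5 and mt-Nd6. These identities hold for the C57BL/6J sequence. Summed over embryos, each had at most 0.239% of the counts of its member. HFD embryo 78 had the highest share for all 8 copies, up to 7.84% of the mt-Nd4l count for Gm10222, and without this embryo edgeR called 4 of the 7 members and 1.97% of all genes.

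Few of the nuclear-encoded partners in complex I passed the test. Of 38 listed subunit genes 37 were in the table and 35 were tested: 3 rose (8.57%, against 2.12% of all genes called in either direction), none fell, and 29 had a fold change above 0, against 7608 of all 14820 genes. Their median log2 fold change was 0.12, against 0.00 over all genes. Those that rose were Ndufb6 (chromosome 4, 40270591 to 40279421), Ndufb2 (chromosome 6, 39592574 to 39603382) and Ndufb8 (chromosome 19, 44548572 to 44555440), accessory subunits of the membrane arm. Ndufb6 ran from 33.4 to 312 CPM in HFD (median 92.7) and from 31.1 to 186 CPM in LFD embryos (median 80.2), and was higher in HFD by 0.24 on the log2 scale (SE 0.06, edgeR FDR 0.0125). Ndufb2 had medians of 5.24 and 3.95 CPM and differed by 0.41 on the log2 scale (SE 0.11, edgeR FDR 0.0264), and Ndufb8 medians of 9.50 and 7.63 CPM and 0.34 (SE 0.10, edgeR FDR 0.0407). The next by p-value, Ndufb9 (0.49, FDR 0.0606), Ndufa13 (0.22, FDR 0.162) and Ndufv2 (0.24, FDR 0.181), did not pass. The number above 0 depended on the tool. DESeq2 had 29 of the 35 above 0, but limma-voom 21, against 6657 of all 14820 genes. In limma-voom the median was 0.05 for the list and -0.02 over all genes, and 2 of the list were called. Without the HFD embryos numbered 31 to 70, edgeR called none of the 34 then tested, with 4 at an unadjusted p under 0.05, and none was called by limma-voom with number ranges as a random effect, with 6 under 0.05.

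Of 16 genes for complex I assembly factors 12 were tested, and edgeR called none, with 3 at an unadjusted p under 0.05. DESeq2 and limma-voom called none. Over all genes edgeR called 2.12%, DESeq2 3.38% and limma-voom 2.19%. At these shares lists of 12 or 19 genes would hold few or no calls, so that none called says little about such a list. Of 22 genes for mitochondrial transcription and RNA processing, such as Polrmt, the mitochondrial RNA polymerase, and Lrpprc, which stabilizes mitochondrial mRNAs, 19 were tested and edgeR called none, with 2 at an unadjusted p under 0.05, and limma-voom called none. DESeq2 called 1, Trmt10c, which encodes a subunit of mitochondrial RNase P and is named here after its values were seen (0.22, DESeq2 FDR 0.0414, and 0.21, edgeR FDR 0.0765). Their median log2 fold changes were 0.12 and -0.03. Of the other 6 mitochondrial mRNAs, for complexes III, IV and V, 5 rose, with log2 fold changes of 0.28 to 0.55 over the 6, and mt-Co2 (0.28, edgeR FDR 0.0527) did not pass. The 7 mt-Nd mRNAs ran from 0.22 to 0.39. The difference between these sets was not tested.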

How the data were processed

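Single 2-cell embryos (122 HFD, 99 LFD) were profiled by Smart-seq2. The authors deposited raw counts per gene. Per the study's methods and the submitters' processing notes, Trim Galore 0.6.6 removed adaptors and STAR 2.7.10a aligned the reads to GRCm38 carrying the Staudach mitochondrial sequence. The counting, per the file headers, was by featureCounts 2.0.3 over exons of Ensembl release 102 with strand setting 2. By default it skips reads with several matches or genes, which lowers counts where genes overlap or have nuclear copies. Total counts gave the depth, and the spread between embryos served as the error; PCR reads are not independent molecules.

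Groups came from the titles. Genes passing filterByExpr were tested with edgeR 4.0.16 (TMM, quasi-likelihood, FDR threshold 0.05) in R 4.3.3, with DESeq2 1.42.0 and limma 3.58.1 as alternatives. The SE of a fold change was derived from its F statistic. Ratios and correlations used Python 3.11.15, numpy 2.4.6 and scipy 1.17.1, and the 95% intervals of ratios are normal approximations from the SE. No 2 embryos held identical counts, and the 50 most similar pairs differed by at least 14.3 chi-square units per gene, so none were merged. The scripts were tested on simulated data. The members and lists were chosen with earlier results of these data known. Genes were named by rule: all members, the 6 nuclear complex I genes of smallest p, and for each member the 2 nuclear and 2 mitochondrial genes of highest r. Alternatives changed the tool, filter, library sizes, covariates and embryos used. No column of per-sample values was left unused.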

Additional observations from a re-analysis of the deposited data

How the results depend on the processing

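Over the 13 other fits all 7 mt-Nd mRNAs kept a fold change above 0, and mt-Nd1, mt-Nd4l and mt-Nd4 passed in each. Among these fits, that without HFD embryos 31 to 70 is a description and no test of the diet. Of all genes, 314 were called in the edgeR fit reported, 159 higher and 155 lower in HFD. That number was 7030 without the filter on low counts (4943 higher, 2087 lower), 547 with number ranges as a fixed effect, 175 without HFD embryos 31 to 70 (60 of them higher), 560 without embryos of few genes and 80 in limma-voom with number ranges as a random effect, a fit chosen after seeing the data, like those without HFD embryo 78 and with library sizes from all genes. Without the filter, 7 mt-Nd genes and 5 nuclear complex I genes were called. Of the nuclear complex I genes, 0 were called without HFD embryos 31 to 70, 6 without embryos of few genes and 0 with the random effect. The cause of these changes was not tested.

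Of the 21 pair ratios, 5 were called over all embryos, 3 with medians, 11 with permutation within number ranges, 10 without HFD embryos 31 to 70 and 8 without embryos of few genes. Among the ratios described as called or as ratios to mt-Nd6, those with mt-Nd6 were the ones that changed sign. For mt-Nd1 to mt-Nd6 the difference was -0.0266 within number ranges and -0.0101 without embryos of few genes. For mt-Nd4l to mt-Nd6 it was -0.000473 with medians, -0.0261 within ranges and -0.0140 without embryos of few genes, and for mt-Nd4 to mt-Nd6 -0.0295 within ranges and -0.00106 without embryos of few genes. Without HFD embryos 31 to 70 it was 0.22 for mt-Nd3 to mt-Nd6 and 0.0590 for mt-Nd5 to mt-Nd6. Among the 10 other pairs, 14 of 80 alternative values had the other sign, and 6 pairs passed in some alternative. The fit without HFD embryos 31 to 70 leaves out embryos chosen with earlier results known.

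The embryo numbers did not pair the embryos: over 94 shared numbers the median correlation of deviations was 0.00623, 17 exceeded 0.1, and 1 HFD embryo correlated best with its own number. With the embryo number as a replicate block, 496 genes, 5 mt-Nd genes and 10 pair ratios were called, and the difference was -0.0254 for mt-Nd4l to mt-Nd6 and -0.0187 for mt-Nd4 to mt-Nd6.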

Other observations

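With the diet means removed, mt-Cytb, the next mRNA gene after mt-Nd6 on the map, was among the mitochondrial mRNAs least like some members. Its r over embryos was 0.19 with mt-Nd3, 0.25 with mt-Nd4l, 0.39 with mt-Nd5 and 0.46 with mt-Nd1. With mt-Nd2, mt-Nd4 and mt-Nd6 it was higher, at 0.60, 0.61 and 0.61. mt-Ts1, a tRNA gene on the light strand, had medians of 399 CPM in HFD and 329 CPM in LFD embryos and an r of 0.85 with mt-Nd1. These values are descriptions with no test.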
